A study of Mus musculus with 2 samples.

Results

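A mouse expression array carried probes for stretches of the genome, each listed under its coordinates and a strand letter in place of a gene name. They were taken as all non-control probes whose name had the form chromosome, start, end and F (forward) or R (reverse), on build mm9. The array held 4449 such probes under 4061 names, against 56605 non-control probes in all. Of these, 2258 probes under 2097 names passed the scanner software's flag for signal well above background on both arrays, and are called measured here. The names fell on 3229 pairs of coordinates and, once overlapping ones were merged, on 2149 loci, so that neighbouring names often share a transcript or sequence. The arrays were 2: 1 for mouse cells given the agent S180, and 1 for control cells given the solvent DMSO. What S180 is, the kind of cell, the dose and the time are not given in the sources used here. With 1 array a group there is no replicate, so differences compare these arrays and no test was made.

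Long intergenic noncoding RNAs (lincRNAs) are transcribed from stretches between protein-coding genes, are often spliced and polyadenylated, and do not code for a known protein. Many are made at low levels and in few cell types. Some act on chromatin or on genes close to their own site, others act elsewhere in the cell, and for most no function is known. Regions of this kind were first marked out by chromatin signatures of transcription, so that a region's coordinates can be far wider than its transcript, and the strand of the transcript was not always known.

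The probes behind the results are shown first, in the 5′ to 3′ direction as listed in the scanner files, with G and C in capitals because detection and difference both varied with base composition. These 60-base probes belong to the region with the largest difference, on its reverse and forward strand, to the region with the largest difference of the brighter probes, to the brightest of the named regions, to 2 regions beside Zfp654, to the region beside Sap30, and to the region with the most negative difference.
chr8:26212577-26218527 R: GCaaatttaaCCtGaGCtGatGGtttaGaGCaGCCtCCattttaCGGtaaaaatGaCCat
chr8:26212577-26218527 F: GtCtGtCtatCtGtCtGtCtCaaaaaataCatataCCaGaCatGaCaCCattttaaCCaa
chr4:45079022-45096897 R: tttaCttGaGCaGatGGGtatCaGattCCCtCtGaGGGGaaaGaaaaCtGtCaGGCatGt
chr2:59235155-59242518 F: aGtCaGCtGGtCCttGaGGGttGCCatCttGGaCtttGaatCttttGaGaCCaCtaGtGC
chr16:64823448-64824632 R: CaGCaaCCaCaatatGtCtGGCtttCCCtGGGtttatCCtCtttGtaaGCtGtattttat
chr16:64820905-64822069 R: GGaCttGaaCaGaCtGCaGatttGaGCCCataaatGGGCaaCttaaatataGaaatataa
chr8:59966759-59989065 R: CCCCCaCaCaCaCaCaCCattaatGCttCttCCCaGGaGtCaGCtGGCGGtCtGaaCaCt
chr17:80133213-80144417 F: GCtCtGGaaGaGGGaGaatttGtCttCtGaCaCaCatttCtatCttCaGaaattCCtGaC

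Each array held 62976 spots in 1 colour. Of 59305 non-control spots, that flag was set for 61.9% with S180 and 60.6% with DMSO, and none was saturated. Differences are S180 minus DMSO in log2 signal, after each array's 75th percentile was subtracted. Their error within the arrays came from measured probes spotted 10 times. The SD of a difference between single spots was 0.27 in the dimmest of 3 equal classes of measured probes (10 such probes), 0.08 in the middle class (5) and 0.04 in the brightest class (262), and covers neither culture nor RNA preparation. Hypoxia target genes were 2-fold higher in S180 for 19 of 33 measured members, and cholesterol synthesis genes for 9 of 23. ATF4 and stress response genes were so for 6 of 23, and interferon response genes for 0 of 29. Of all measured probes 0.63% were, and the lists were chosen with earlier results of these data known. All 7 melanocyte markers looked for were measured, with signals from 4651 to 215584 with S180 and from 5683 to 233546 with DMSO. The other 8 marker lists had 1 to 5 measured members each, among them 5 of 6 fibroblast, 4 of 6 macrophage and 4 of 5 neuron markers. Neuron markers reached 6929 with S180 and 7313 with DMSO, above the lowest melanocyte signals.

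Many region probes gave no signal above background: 50.8% were measured, against 58.3% of the other 52156 probes and 60.2% of the 45305 probes named by a gene symbol. A further 193 region probes (4.34%) had the flag with S180 alone, 84 (1.89%) with DMSO alone and 1914 with neither. Of the other probes, 2.37% had it with S180 alone and 1.04% with DMSO alone. Reverse-strand probes were measured in 52.1% of 2222 cases and forward-strand probes in 49.4% of 2227. The measured share was 46.0% for the 2614 probes with over 35 to 45% GC and 86.3% for the 80 probes with over 65% GC. Gene probes went from 59.0% to 80.1% between the same classes. Region probes held over 55% GC more often than gene probes did, in 6.16% against 1.81% of cases. The regions ran from 62 bases to 538 kb, with a median of 10.3 kb. With the probes ranked into 3 equal classes by the length of their region, those of the shortest, up to 5.15 kb, were measured in 45.9% of cases, and those of the longest in 54.3%.

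Some of the named regions overlap genes, as far as the array's own probes can show, since no gene annotation was used. Of the 4061 names, 442 held, within their coordinates, a probe for a gene symbol on the same strand, and 373 held one on the opposite strand only. Probes of these names were measured in 57.3% of 927 cases, and those of the other names in 49.0% of 3522. The strand letter matched the probe's listed orientation for all 4358 probes with a listed position, and each of these lay inside its named region. The other 91 probes have no listed position.

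Few regions differed by much between the arrays. On the 2-fold scale 7 region probes were higher in S180, or 0.31%, where 0.63% of all 32680 measured probes were. Another 3 were lower, or 0.133%, where 0.15% of all measured probes were. At 1.5-fold, 100 region probes (4.43%) were higher, beside 3.21% of all measured probes, and 43 (1.90%) were lower, beside 1.67%. Both shares at 2-fold were thus at or below the background, and both at 1.5-fold somewhat above it. Within 1.5-fold lay 93.7% of region probes and 95.1% of all measured probes.

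The region probes shared a small offset. Their median difference was 0.09 (quartiles -0.09 and 0.27, SD 0.30), where that of all measured probes was 0.00 (quartiles -0.14 and 0.17, SD 0.29), and 1427 of 2258, or 63.2%, lay above the latter median. The offset of 0.087 is a factor of 1.06. It was 0.071 to 0.107 under the other scalings, background correction and filters tried. The sign of the region probes' own median against 0, however, was not fixed. On the scale of the spike-in transcripts, control RNAs added to both samples for labelling, the median of all measured probes was -0.35 and that of region probes -0.26. Of the 2258 region probes, 3 were then 2-fold higher and 31 were 2-fold lower. The shares over all measured probes were 0.223% and 1.21% on that scale.

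**Figure D1:**
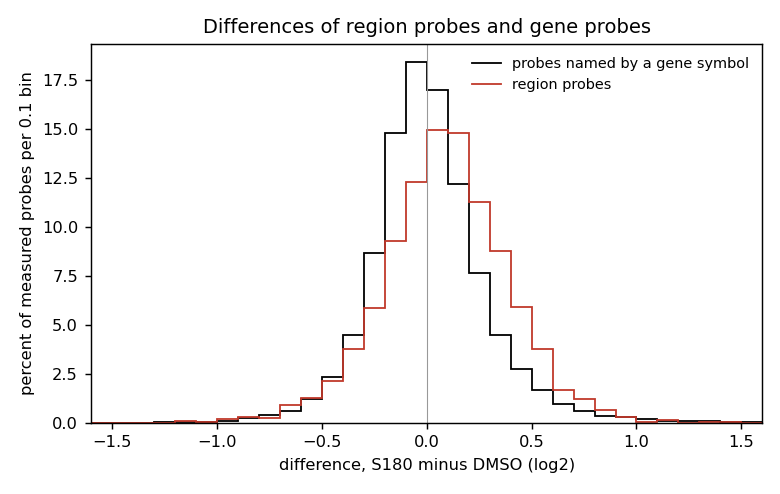
Share of measured probes (percent, vertical) in each 0.1 step of the difference S180 minus DMSO (log2, horizontal) for 2258 region probes (red) and 27283 probes named by a gene symbol (black). The red outline lies to the right of the black one, with medians of 0.09 and -0.01, and both tails beyond 1 and -1 are thin.

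The offset was present at every signal level. Region probes were mostly dim, 59.5% of them lying in the dimmest class of all measured probes and 10.4% in the brightest. Their median difference was 0.09 in the dim class (1344 probes), 0.08 in the middle class (680) and 0.11 in the bright class (234). The gene probes of the same classes had medians of 0.04, -0.03 and -0.01. The spread of the region probes narrowed with signal, from an SD of 0.34 in the dim class to 0.22 in the bright class, much as that of gene probes did (0.36 to 0.22).

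Base composition moved with it. The median difference of region probes was 0.05 for those with up to 35% GC (266 measured), 0.07 above that to 45% (1202), 0.12 to 55% (575), 0.15 to 65% (146) and 0.17 over 65% (69). The medians thus went up from each class to the next. Gene probes showed a similar slope, from -0.02 to 0.15, and in each class their median was the lower one. Across probes, Pearson's r of GC content and difference was 0.11 for the 2258 region probes and 0.06 for the 27283 gene probes, as a description, since all points share the same 2 arrays. The part of base composition in the offset was not tested. By chromosome, the median ran from 0.05 on chromosome 8 (139 probes, SD 0.34) to 0.14 on chromosome 13 (116 probes, SD 0.32), and on each of the 20 chromosomes with probes it was above that of all measured probes. Forward and reverse probes had the same median to 2 decimals: 0.09 for 1101 forward probes (SD 0.30) and 0.09 for 1157 reverse probes (SD 0.31). They differed by 0.003. Among the 480 probes brighter than the median of all measured probes the medians were 0.08 for forward and 0.13 for reverse probes, a difference of -0.050.

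**Figure D2:**
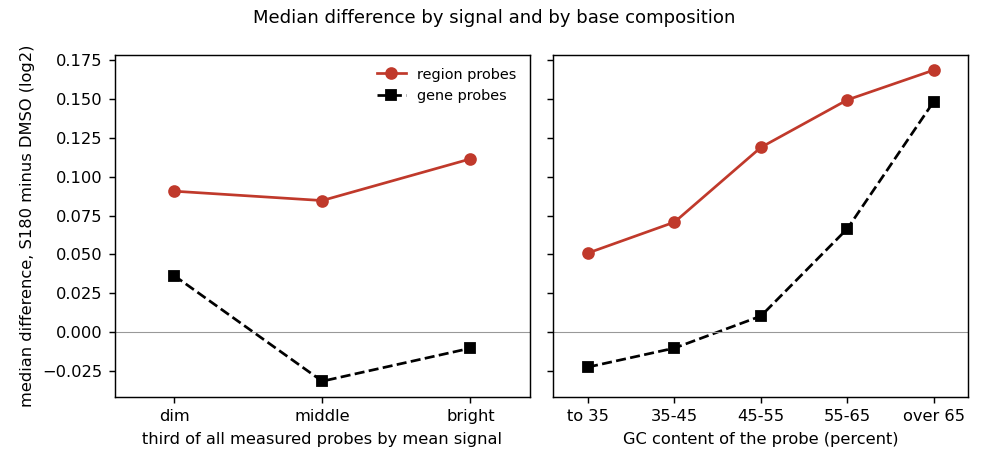
Median difference S180 minus DMSO (log2, vertical) of region probes (red circles) and gene probes (black squares), by class of mean signal (left, 3 classes of equal size) and by GC content of the probe in percent (right). Region probes lie above gene probes in every class, and both go up with GC content, region probes from 0.05 to 0.17.

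The largest difference of any region was at chr8:26212577-26218527. Its reverse-strand probe had a signal of 90.6 with S180 and 32.0 with DMSO, a difference of 1.78 or 3.44-fold. Its forward-strand probe read 94.0 and 71.8, a difference of 0.67 or 1.59-fold. Both strands were higher in S180, and of 305 coordinates measured on both strands this was the only one with both at 1.5-fold the same way. The nearest gene probe, 5.95 kb from the reverse probe on the opposite strand, was that of 5830408C22Rik, a transcript known by a clone name. Its own signal was 412 with S180 and 183 with DMSO, a difference of 1.45.

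The other 6 region probes that were 2-fold higher were, except one, dim. That one, the reverse probe of chr4:45079022-45096897, read 288 with S180 and 153 with DMSO, a difference of 1.20 against a spot SD of 0.08 for probes of its brightness. Its nearest gene, Tomm5, a subunit of the channel that imports proteins into mitochondria, lay 21.7 kb away on the same strand and had a difference of -0.21. Reverse probe chr9:96964067-96973567 read 115 and 66.3, a difference of 1.07. It lay 6.96 kb from the probe of Slc25a36, a mitochondrial carrier of pyrimidine nucleotides, on the same strand, which differed by 0.59, and the 5 probes of this gene had 0.49 to 0.59.

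The remaining 4 had signals under 55 on both arrays. Forward probe chr17:8718223-8949898 read 37.9 and 17.4 (1.40), and reverse probe chr1:138528250-138538250 read 53.4 and 25.05 (1.37). Reverse probe chr2:94017095-94019092 read 37.0 and 20.8 (1.12), and forward probe chr4:82979473-83035023 read 35.7 and 20.1 (1.11). All 4 lay in the dim class, where the spot SD was 0.27. Other probes of these loci were closer to 0: a forward probe of the chr1 region, with signals of 1251 and 1367, had 0.15, and an overlapping reverse probe at chr2:94008913-94019798 had 0.37. The 2-fold probes were chosen after their values were seen. The chr4:45079022-45096897 probe also met the naming rule for brighter probes, itself set with earlier results of these data known. Under normexp background correction, which pulls dim signals towards a common level, none of the 7 reached 2-fold and 4 were at 1.5-fold.

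**Figure D3:**
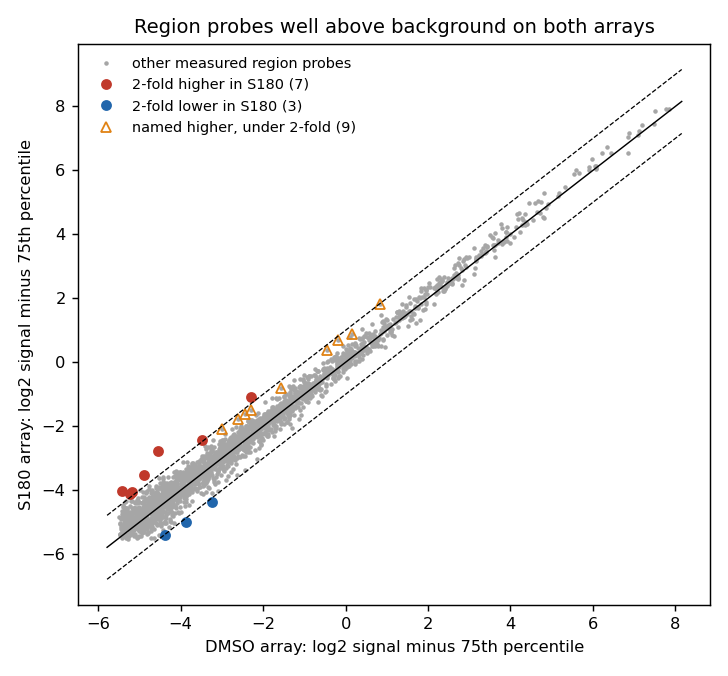
Scaled log2 signal of the 2258 measured region probes on the DMSO array (horizontal) and the S180 array (vertical), with the line of equality and dashed lines at 2-fold. The 7 probes 2-fold higher (red) and 3 lower (blue) lie in the dimmer part of the range, while the 9 other named probes (orange triangles) include brighter ones.

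Among the brighter region probes, the differences that held up with the 75th percentile scaling, with quantile normalization and with normexp were all towards higher signal in S180. Of 1129 region probes above the members' median signal, 24 were 1.5-fold higher and 4 were 1.5-fold lower. Over all measured probes, of any brightness, 3.21% were 1.5-fold higher and 1.67% lower. Asking for 1.5-fold the same way also with quantile normalization and with normexp left 14 higher and 0 lower. One of the lower probes, at -0.58 with normexp, fell just short. How many gene probes of like brightness pass the same settings was not counted, so this lean cannot be called particular to the regions. Gene probes leaned the same way at 2-fold. In the middle class 0.607% were higher and 0.117% lower, and in the bright class 0.646% and 0.0104%. The 10 largest of the 14 region probes, from 0.74 to 1.20, were taken for description: 4 forward and 6 reverse. The spike-in scale lowers every difference by 0.355, and the 10 then ran from 0.38 to 0.84, with 2 of them at 1.5-fold. On that scale 0.177% of the 1129 were 1.5-fold higher and 9.48% were 1.5-fold lower.

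After the chr4 region above, the next was chr2:59235155-59242518 on the forward strand. Its probe, the brightest of the 10, read 2180 with S180 and 1343 with DMSO, a difference of 0.98 where the spot SD was 0.04. The nearest gene probe, 5330411J11Rik, lay 16.4 kb away on the opposite strand with 0.04. Forward probe chr17:32948750-32967925 read 146 and 93.5 (0.92), and lay 1.39 kb from the probe of the zinc finger gene Zfp799, which had -0.15. Forward probe chr6:127111250-127142925 read 1004 and 662 (0.88). Its nearest gene probe, 9330179D12Rik, was not well above background on either array.

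A pair of the 10 lay side by side on the reverse strand of chromosome 16, the strand of the zinc finger gene Zfp654 beside them. Region chr16:64823448-64824632 read 809 and 545 (0.85), and region chr16:64820905-64822069 read 354 and 251 (0.78). A wider region over both, chr16:64796849-64843249, had a reverse probe at 92.1 and 77.9 (0.52) and a forward probe at 41.1 and 42.8 (0.23). The nearest Zfp654 probe is split over chr16:64814502-64830318, so that both regions lie between its ends, inside the span of the gene. It read 207 and 180 (0.48), and all 4 measured probes of Zfp654 had 0.48 to 0.71. The probes on the gene's strand were thus all higher in S180, and the region probe on the other strand the least so.

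Of the 10 regions, 9 had a measured nearest gene probe within 50 kb. Leaving aside the gene's other probes, in 1 case that nearest probe too was 1.5-fold higher. This was chr8:59966759-59989065 on the reverse strand, at 202 and 137 (0.84), 4.13 kb from the probe of Sap30 on the same strand, which read 5131 and 3268 (0.93). Sap30 codes for a subunit of the Sin3 histone deacetylase complex, and its probe lies outside the region's coordinates. The last 3 were chr12:3407353-3426580 (reverse, 180 and 123, 0.83), chr11:97505439-97522274 (forward, 218 and 153, 0.79) and chr14:62263564-62307496 (reverse, 1139 and 830, 0.74). Their nearest genes were the kinesin gene Kif3c with 0.21, the chromatin reader gene Mllt6 with 0.36 and Dleu2 with 0.15. Dleu2 is itself a noncoding RNA, the host transcript of miR-15a and miR-16. Its 3 measured probes ran from -0.05, at the brightest with 337 and 424, to 0.21. At the same locus 4 other reverse-strand names overlap that region, and their 5 measured probes had smaller differences, the largest 0.32 at chr14:62280837-62283960 and the smallest 0.16 at chr14:62254361-62301162. The chr12 region is overlapped by chr12:3406750-3425850, whose reverse probe was brighter, at 409 and 479, and differed by only 0.05. The forward probe of that overlapping region read 114 and 145 (-0.07).

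Differences of 2-fold towards lower signal in S180 were found at low signal. The 3 region probes 2-fold lower were all dim and chosen after their values were seen. Forward probe chr17:80133213-80144417 read 19.1 with S180 and 51.4 with DMSO, a difference of -1.15. Forward probe chr2:135472670-135484220 read 29.8 and 78.5 (-1.11), and a second probe of that name read 21.0 and 36.5 (-0.52). The nearest gene of this region was Plcb4, a phospholipase C, with 0.08. Reverse probe chr2:71576218-71603818 read 14.5 and 35.9 (-1.03). None of the 3 reached 1.5-fold with normexp correction.

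The 4 brighter probes that were 1.5-fold lower, also chosen after their values were seen, covered 3 regions. Forward probe chr17:15111725-15139800 read 75.9 and 168 (-0.87), and reverse probe chr12:72103832-72116875 read 181 and 344 (-0.65). The other 2 belong to the reverse strand of chr18:61781410-61788685, where one read 147 and 302 (-0.75) and the other 162 and 296 (-0.59). On the spike-in scale the 4 ran from -1.22 to -0.95. Another probe of this locus, chr18:61788148-61788307, read 38.0 and 87.8 (-0.93). Of 555 loci with at least 2 measured probes, this one and the chr8:26212577-26218527 locus were the 2 at which every measured probe reached 1.5-fold the same way. The nearest gene probe, 17.4 kb away on the same strand, was that of Carmn, the host RNA of miR-143 and miR-145, with 0.16.

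Regions seen on 1 array only give a lower bound, set against the higher of the other array's lowest well-above-background signal (13.1 for S180 and 16.5 for DMSO) and the value of the probe itself, both scaled. Of the 193 seen with S180 alone, 6 had a bound of 2-fold or more and 46 of 1.5-fold or more. Of the 84 seen with DMSO alone, 1 and 10 did. All lay near the edge of detection, with signals of at most 36.3 with S180 in the first group and at most 54.5 with DMSO in the other. The direction of each bound is set by the flag itself. More of the other probes, too, had the flag with S180 alone (2.37%) than with DMSO alone (1.04%), and their bounds were not counted.

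The largest bounds higher in S180 were at least 2.68-fold for chr16:40552116-40552742 (36.3 on the S180 array, 3.51 on the DMSO array), at least 2.41-fold for chr10:39607282-39619520 (32.7 and 12.1) and at least 2.16-fold for chr6:146495264-146495602 (29.2 and 16.0). The largest bound lower in S180 was for the reverse probe of chr11:69184157-69201732, at 3.89 with S180 and 54.5 with DMSO, at least 3.41-fold. Its nearest gene probe was that of Cyb5d1, 21.3 kb away. Next came at least 1.88-fold for chr7:134595900-134610975 and at least 1.74-fold for chr13:112207480-112213280.

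Region probes moved with their neighbours to a small degree. Of 2223 measured region probes with a position, 1815 had a gene symbol probe within 50 kb, and the median distance to the nearest was 16.4 kb. Over the 1323 pairs within 50 kb in which the gene was measured too, Pearson's r of both differences was 0.14. Over 15934 pairs of a gene and the nearest probe of another gene it was 0.07. Within 10 kb the values were 0.25 over 684 pairs and 0.07 over 8115 pairs. For genes on the region probe's own strand r was 0.30 within 10 kb (422 pairs), and for genes on the opposite strand 0.18 (262 pairs). Gene pairs gave 0.16 and 0.04 in the same split. Spearman's rho, which a single far point moves less, was 0.29 on the same strand and 0.09 on the opposite strand, and 0.14 and 0.07 for gene pairs. For regions that hold a gene's probe r was 0.21 both within 50 kb (367 pairs) and within 10 kb (307 pairs). Without them it was 0.12 within 50 kb (956 pairs) and 0.30 within 10 kb (377 pairs). These are descriptions across probes on the same 2 arrays, where neighbours can share a transcript or base composition, and several probes can share a gene.

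The relation was closer at higher signal. Among the 480 region probes above the median signal of all measured probes, r within 50 kb was 0.27 (279 pairs), where 8992 pairs led by a gene above that median gave 0.06. For these brighter region probes r was 0.29 with genes on the same strand (172 pairs) and 0.23 with genes on the opposite strand (the other pairs).

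**Figure D4:**
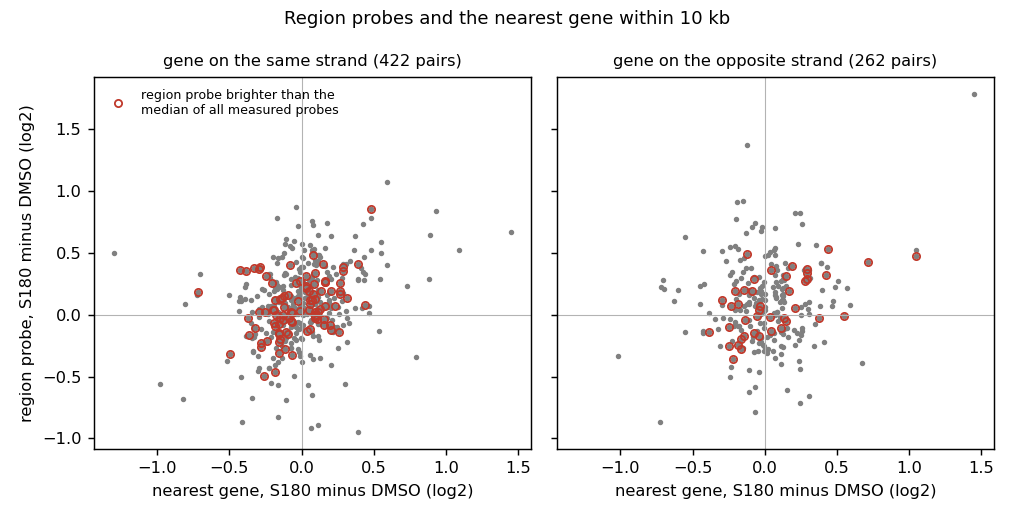
Difference S180 minus DMSO (log2) of measured region probes (vertical) and of the nearest measured gene within 10 kb (horizontal), for genes on the same strand (left, 422 pairs) and on the opposite strand (right, 262 pairs). Red rings mark region probes brighter than the median of all measured probes. The clouds are wide, with r of 0.30 and 0.18, and the point at the upper right of the right panel is the chr8 region beside 5830408C22Rik.

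Regions beside genes that themselves differed 2-fold, taken after their values were seen, were few: 10 region probes beside 8 genes. The region probe differed in its gene's direction in 7 cases and in the other direction in 3 (8 and 2 with normexp), and 2 of the 10, both at chr8:26212577-26218527, reached 1.5-fold. Of all 1323 measured pairs within 50 kb, 54.5% lay on the same side of the median of all measured probes. The 10 are too few to tell from that share. Next to Pcyt1b, which codes for an enzyme of phosphatidylcholine synthesis and had 1.05, the reverse probes of chrX:90997595-91009570 and chrX:91000651-91005855 read 364 and 308 (0.52) and 460 and 403 (0.47). Beside Zbtb38, a gene for a protein that binds methylated DNA, with 1.09, the reverse probe of chr9:96635508-96654148 read 171 and 145 (0.52). A second reverse probe beside that gene, chr9:96632664-96653249, read 281 and 217 (0.65), and is not among the 10 because the Zbtb38 probe nearest to it was not well above background on both arrays. Beside Bcl6, a transcriptional repressor gene with 1.04, a forward probe read 17.0 and 17.8 (0.22). Beside Tubb2b, a beta-tubulin gene with 1.01, a reverse probe had -0.33 at signals of 19.96 and 30.6. Beside 2310057B04Rik, with -1.30, the forward probe of chr13:23517278-23523756 had 0.50 at signals of 32.5 and 27.9. Several of the gene probes had low signals themselves: Pcyt1b 43.5 and 25.5, Zbtb38 77.2 and 44.1, Bcl6 58.3 and 34.6, and 2310057B04Rik 16.8 and 50.3. That of Tubb2b read 10273 and 6182.

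Lists of hypoxia targets, cholesterol synthesis, ATF4 and interferon response genes had 14 measured region probes within 50 kb of a member, under 9 names and beside 4 genes. None of the 14 reached 1.5-fold, where 4.43% of all measured region probes were that much higher and 1.90% lower. A group of 14 is too small to tell from these shares. The probe of Vegfa, the blood vessel growth factor induced in hypoxia, had 1.68. The 1 region probe beside it, 42.7 kb away at chr17:46204283-46221215, read 22.5 and 40.4 (-0.56, and -0.03 with normexp). The probe of Bnip3l, a mitophagy receptor gene, had 0.81, and the 3 region probes beside it had 0.01, -0.06 and -0.20. The brightest of these, forward probe chr14:67587065-67588705, read 12014 and 14454. The other 10 region probes lay beside Isg15, a ubiquitin-like interferon target, and Ifi204, an interferon-inducible DNA sensor gene. They ran from -0.35 to 0.42 with a median of 0.02. The nearest probe of Isg15 itself had -0.19, and the nearest probes of Ifi204 had 0.60 and 0.04. Of the interferon list 29 genes were measured, 0 were 2-fold higher and 2 were 2-fold lower, with a median of -0.18.

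Known long noncoding RNAs with names of their own had a median on the other side of 0 with this scaling. Of 59 named ones on the array 40 were measured, and none of them was 2-fold higher or lower. Their median was -0.10, the opposite sign to the regions' 0.09, and 14 of the 40 lay above 0. At 1.5-fold 1 was higher and 2 were lower. The higher one, Ftx, a noncoding RNA of the X inactivation center, read 40.5 and 29.9 (0.72). Rmrp, the RNA of the RNase MRP complex, read 1658 and 1501 (0.42). Firre, a nuclear RNA of the X chromosome, read 1086 and 2219 (-0.75), and Neat1, the scaffold of nuclear paraspeckles, read 3742 and 6409 (-0.50). Gas5, a host of small nucleolar RNAs, read 38411 and 49205 (-0.08).

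Opposite strands of the same coordinates gave largely separate values. Probes existed for both strands at 832 coordinates, of which 305 were measured on both strands, 136 on the forward strand only, 193 on the reverse strand only and 198 on neither. Over the 305, r between the strands was 0.11 and the median size of the disagreement was 0.26. Both strands lay above the median of all measured probes at 132 coordinates and both below it at 42, and they lay on opposite sides at 131. Over the 33 coordinates with both strands brighter than the median of all measured probes r was 0.42. All these pairs share the 2 arrays, and where both are dim the spot SD of 0.27 is of the size of the disagreement itself.

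**Figure D5:**
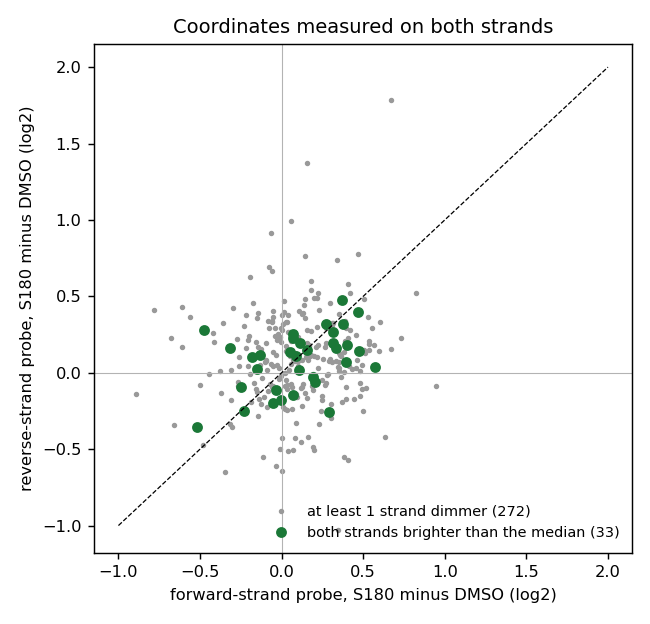
Difference S180 minus DMSO (log2) of the forward-strand probe (horizontal) and the reverse-strand probe (vertical) at 305 coordinates measured on both strands, the brightest probe standing for each strand, with the line of equality dashed. Green points are the 33 coordinates with both strands brighter than the median of all measured probes, which follow the line more closely (r of 0.42) than all 305 do (0.11).

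The widest disagreements came with 1 dim strand. At chr2:71576218-71603818 the forward probe read 365 and 350 (0.34) and the reverse probe, given above, had -1.03. At chr1:138528250-138538250 the brighter forward probe had 0.15 and the reverse probe 1.37. Region chr16:59557120-59602070 had a forward probe at 13.6 and 28.5 (-0.78) and a reverse probe at 504 and 461 (0.41). Of the 305 coordinates, none had 1 strand 1.5-fold higher and the other 1.5-fold lower at once.

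Separate probes of the same strand agreed better. At 140 names with at least 2 measured probes, r between the differences of the 2 brightest was 0.31, their median disagreement 0.16 and the largest 1.17. In 1 of the 7 names where either probe reached 1.5-fold, the region beside Carmn, both did. With both probes brighter than the median of all measured probes r was 0.62, over 26 names.

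The sequences of the region probes, bright and dim, were also set against those of other probes on the array. Some region probes share a run of at least 20 bases, in the same orientation, with the probe of another target on the array. This was so for 40, of which 34 were measured. Of these, 16 were in the bright class, which holds 234 measured region probes. For 14 the longest such run was with a probe on another chromosome. Whether RNA of the gene adds to the signal of such a region probe was not tested. The sequences below, chosen after the runs were seen, show the shared run in capitals, all partners being on another chromosome.
chr7:108209996-108216032 R, with Rps29: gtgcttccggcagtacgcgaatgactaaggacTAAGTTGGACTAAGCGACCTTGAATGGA
chr19:56820850-56837925 R, with Mif: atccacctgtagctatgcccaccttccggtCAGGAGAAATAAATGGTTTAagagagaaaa
chrX:98658045-98677545 F, with Anapc13: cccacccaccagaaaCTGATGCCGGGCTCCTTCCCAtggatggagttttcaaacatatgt
chr14:55433382-55452757 R, with Ifitm3: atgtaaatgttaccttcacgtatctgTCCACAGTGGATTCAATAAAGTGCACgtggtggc
chr5:96591892-96606467 F, with Ifitm3: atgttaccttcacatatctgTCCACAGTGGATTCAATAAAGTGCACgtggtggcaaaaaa
chr12:82495575-82516300 F, with Hspe1: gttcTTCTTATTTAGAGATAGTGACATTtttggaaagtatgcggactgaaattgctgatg

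The first shares 28 bases with the probe of Rps29, a ribosomal protein gene. It read 81190 with S180 and 86247 with DMSO, a difference of 0.19, and that Rps29 probe had 0.12; the 4 probes of Rps29 ran from -0.23 to 0.22. The next shares 20 bases with Mif, a cytokine gene, and had 0.27 where Mif had 0.34. The run with Anapc13, a subunit of the anaphase-promoting complex, is 21 bases, and both were negative, at -0.10 and -0.14. Both regions that share 26 bases with Ifitm3, an interferon-inducible membrane protein gene, lie on different chromosomes and had 0.04 and 0.09, beside 0.09 for Ifitm3. The last shares 24 bases with Hspe1, a mitochondrial chaperonin gene, read 61.9 and 101, and had -0.42 beside -0.21. Over the 14 pairs on different chromosomes r of the differences was 0.34, a description over few pairs that share the arrays. In 12 of the 14 the signs were the same, and how often probes that share no run have the same sign was not counted. The exceptions were chr1:139856545-139857204 on the forward strand, at 582 and 747 (-0.08) where Fbn2, a fibrillin gene, read 49.6 and 34.1 (0.82), and chr4:33364774-33364898 on the reverse strand, at 41014 and 50016 (-0.01) where a probe listed under a transcript accession had 0.15. None of the 19 region probes that were 2-fold changed or among the 10 named ones shared such a run, nor could runs with genes outside the array's probes be looked for.

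Spotted 10 times each, 5 region probes have differences with a small error over spots, which covers neither culture nor scaling. Probe chr17:39983902-39985688 on the forward strand, 1.57 kb from that of the ribosomal RNA gene Rn18s and 70% GC, read 49446 to 51979 over 9 kept spots of the S180 array and 45536 to 48401 over 9 of the DMSO array. These unscaled signals of the 2 arrays did not overlap, and the scaled difference was 0.39 ± 0.01 (SE over spots). Forward probe chr17:48068261-48087905 read 137411 to 145708 over 9 spots and 130274 to 140167 over 10, a difference of 0.35 ± 0.01. The other 3 differed by 0.05 to 0.18. On the spike-in scale, which lowers all differences alike, the first was 0.03, the second -0.003, and the other 3 were -0.31 to -0.17. With quantile normalization the first was 0.28, the second 0.12, and the other 3 ran from -0.20 to 0.12. The choice of scaling thus moved these differences by more than their SE, and not every sign was kept.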

How the data were processed

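RNA was extracted with a kit, amplified and labelled with Cy3, per the labels' protocols. The intensity values are processed spot signals from Agilent Feature Extraction 10.7.1.1, deposited unchanged: background subtracted and detrended, with surrogate values for dim spots and no scaling between arrays, per the file headers. Raw mean and local background intensity were used for normexp. How the deposited table of log2 values was made is not stated in the sources used here. Of these values, 99.7% in the DMSO column and 99.8% in the S180 column lay within 0.01 of quantile-normalised log2 signals; both medians were 5.27, so its scale and direction were settled.

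Control spots and outlier-flagged spots were left out. Signals were averaged per probe as log2, then scaled by subtracting each array's 75th percentile (Python 3.11.15, R 4.3.3, limma 3.58.1). A probe counted as measured when over 0.5 of its spots were well above background on each array. Positions are those of the files, on mm9. Genes were named through RefSeq's table of GRCm38.p6, for names only: 32989 probes matched by accession. The nearest gene was the closest probe with a gene symbol by midpoint. The members, the gene lists and the naming rule (10 largest differences each way above the members' median signal and 1.5-fold under 3 settings, 3 bounds each way, regions within 50 kb of a list gene, and 3 strand pairs) were chosen with earlier results of these data known. The counting was tried on simulated probes with known differences past 2-fold. Their noise was set below that of the dim class, so the trial does not cover errors in counts of dim probes. Slide and scan were shared by the arrays, whose number limits the precision.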

Additional observations from a re-analysis of the deposited data

How the results depend on the processing

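The offset of the region probes ran from 0.071 to 0.107 over its alternatives, and the difference between strands from -0.050, among the brighter probes, to 0.009. The count of 7 higher became 0 with normexp and 0 among probes brighter than the median of all measured probes, 3 with no scaling, 3 on the spike-in scale, 100 at 1.5-fold and 1 at 3-fold. The count of 3 lower became 5 with quantile normalization, 5 with cyclic loess, 5 in the deposited table, 0 with normexp, 0 among the brighter probes, 19 with no scaling, 31 on the spike-in scale, 43 at 1.5-fold and 0 at 3-fold. The correlation with the nearest gene was 0.142, and moved to 0.266 among the brighter probes and to 0.255 within 10 kb. That between strands, 0.107, moved to 0.42 among the brighter probes. The brighter filter leaves 480 region probes; otherwise the cause was not tested. Leaving out regions that hold a gene probe, an alternative chosen after seeing the data, gave 6 higher and 2 lower. The alternatives for the strand pairs were also chosen after seeing the data.

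Of 222 values of single probes under 3 alternatives, 192 stayed within their spot SD, 27 moved further and 3 moved further with a change of sign, all 30 with normexp: chr13:34240528-34240965 (0.048), chrX:11699327-11699881 (0.013) and 1 probe of chr2:135472670-135484220 (0.032) turned positive. In all, 6 probes changed sign with normexp, 1 in the deposited table and 1 when quantile normalized. No paired analysis was possible because each group has 1 array. Signals near background limit most region probes.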
